A study of Mus musculus with 4 samples.

Results

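The 8 genes described here encode enzymes and a receptor of the lipid mediators made from membrane phospholipids: Ptgs1, Ptgs2, Ptges and Hpgds of the prostaglandin branch, Alox5, Alox5ap and Ltc4s of the leukotriene branch, and Ptafr, the receptor of platelet-activating factor (PAF). They were chosen by symbol from the 21739 gene symbols of the series, and all 8 were listed in each of the 4 count matrices. The libraries were single-cell RNA-seq of periwound skin from C57/BL6j mice aged 6 weeks, taken on day 7 after a full-thickness punch wound at the shoulder midline. The 2 mice of the hucMSC-Exosomes group had 100 µg of exosomes from human umbilical cord mesenchymal stem cells injected under the skin around the wound, and the 2 mice of the control group had the same volume of PBS. Each mouse gave 1 library, and library values are given throughout in the order Control 1, Control 2, hucMSC-Exo 1, hucMSC-Exo 2. No transgene, deletion or further treatment was named for either group.

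The labels did not all say the same thing. Groups were taken from the sample titles. The tissue field named parts of the gut, while the cell type field and the protocol named skin, and the matrix names carried the letter c for the libraries titled Control 1 and hucMSC-Exo 1 and the letter t for those titled Control 2 and hucMSC-Exo 2. If c stood for control and t for treated, the letters would give other groups than the titles. The cluster named neutrophil held 56, 353, 96 and 554 cells. Both t libraries thus held more than both c libraries, while the titled groups overlapped. The paper reports more neutrophils in the hucMSC-Exosomes group than in the control group. Which grouping is right was not settled here, so every direction between groups below is that of the titles. After filters on detected genes (200 to 3000 per cell) and mitochondrial UMIs (at most 10%), 6443 of 7178 deposited cells remained, between 952 and 2074 per library with median depths of 3747 to 4392.5 UMIs. Ptprc, the pan-leukocyte marker, was counted in 81.4 to 87.1% of the kept cells of a library, and no cluster was named from the markers of keratinocytes, fibroblasts or endothelial cells, so the values below are those of the immune cells of the wound. Cells were placed in classes by fixed marker lists that hold none of the 8 genes, and the classes are called T cell-like (1929 cells), macrophage-like (954), neutrophil-like (783), monocyte-like (437), dendritic cell-like (225), group 2 innate lymphoid (ILC2)-like (190), NK cell-like (134) and basophil-like (95), with smaller classes named where they are used. Another 448 cells passed keratin or collagen gates but lay in immune clusters, and they are not described as classes. Levels are CPM, the UMIs of the gene scaled to the total UMIs (counts per 1e6), both summed over the cells of a class in 1 library.

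Prostaglandin synthesis starts when a phospholipase frees arachidonic acid, which the cyclooxygenases Ptgs1, present in many resting cells, and Ptgs2, induced in inflammation, turn into prostaglandin H. Terminal synthases then decide the product: Ptges makes prostaglandin E, and Hpgds makes prostaglandin D. In the leukotriene branch Alox5, presented with its substrate by the membrane protein Alox5ap (FLAP), makes leukotriene A, which Ltc4s joins to glutathione to give leukotriene C, while PAF acts on myeloid cells through the G protein-coupled receptor Ptafr.

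The cyclooxygenase pair is encoded at separate places in the mouse genome (GRCm38, GENCODE M21): Ptgs2 spans chr1:150100031-150108227 on the plus strand and Ptgs1 spans chr2:36230426-36252272 on the plus strand. Their promoters, from 250 bases before to 50 bases after the start in the RefSeq table of GRCm38.p6 (plus strand, chr1:150099781-150100080 for Ptgs2 and chr2:36230176-36230475 for Ptgs1), are printed because the results turn on how differently the pair was counted. Capitals mark matches on either strand to the motifs searched. These were TATAAA, the letters of the TATA box, then TGACG, the core of a cyclic AMP response element, then CACGTG, the letters of an E-box, and GAGGAA, a purine-rich core of the ETS kind.
Ptgs2: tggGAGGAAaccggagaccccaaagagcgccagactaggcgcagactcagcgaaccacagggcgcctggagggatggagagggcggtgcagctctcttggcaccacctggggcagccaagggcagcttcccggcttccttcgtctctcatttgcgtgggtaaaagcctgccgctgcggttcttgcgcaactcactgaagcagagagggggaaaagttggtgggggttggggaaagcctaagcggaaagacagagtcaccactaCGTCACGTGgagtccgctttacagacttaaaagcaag
Ptgs1: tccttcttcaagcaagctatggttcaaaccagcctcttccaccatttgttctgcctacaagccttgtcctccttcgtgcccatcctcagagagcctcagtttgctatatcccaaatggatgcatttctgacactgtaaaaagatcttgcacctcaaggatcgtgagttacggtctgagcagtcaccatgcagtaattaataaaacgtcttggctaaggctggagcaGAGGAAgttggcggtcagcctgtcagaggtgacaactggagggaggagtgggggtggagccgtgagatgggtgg
In Ptgs2 the run of capitals after the start listed in that table holds TGACG on the minus strand and the E-box letters, which overlap. The ETS core lies at position −247 from the start in Ptgs2, and at −24 in Ptgs1, where it was the one match. Of 32851 promoters of the same length in the table, 20.8% held the response element core, 7.15% the E-box, 28.3% the ETS core and 13.6% the TATA box. The ETS core was found in all 7 members listed in the table, and the TATA box letters in none of them. Such matches describe the letters of the window only, and enrichment of a motif among the members was not tested.

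Ptgs2, the inducible cyclooxygenase, was the member with most UMIs, 18363 of which 35.9% came from macrophage-like and 20.7% from monocyte-like cells. Its level was 2276, 1059, 1248 and 1243 CPM in monocyte-like cells (mean 1456 ± 553, SD, n = 4) and 1220, 1156, 758 and 712 CPM in macrophage-like cells (961 ± 263). In neutrophil-like cells it was 2952, 790, 577 and 551 CPM (1218 ± 1161). The 3 myeloid classes overlapped, and Control 1 was the highest library in each. Basophil-like cells, which numbered 57, 19 and 18 in the last 3 libraries and 1 in Control 1, gave 3865, 2053 and 1706 CPM without that single cell (2541 ± 1159, n = 3), the highest mean of any class. Dendritic cell-like cells held 379, 726, 513 and 1261 CPM. Below these came T cell-like cells at 10.8, 76.7, 27.0 and 58.1 CPM, which overlapped ILC2-like cells (6.45 to 40.9 CPM) and in each library lay above NK cell-like cells (3.67 to 13 CPM over the libraries).

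At least 1 Ptgs2 UMI was seen in 66.6% of monocyte-like cells (exact 95% interval 62.0 to 71.0), 52.0% of neutrophil-like cells (48.4 to 55.5) and 49.7% of macrophage-like cells (46.5 to 52.9). Intervals of this kind cover counting error only. NK cell-like cells, used here as the reference for free RNA, had a UMI in 2.99% of cells (0.819 to 7.47). Median depths were 7002, 2163, 7117 and 4534 UMIs in these classes. With every cell thinned to 1000 UMIs, which left out 5, 9, 48 and 1 of the shallower cells, the shares were 45.4, 35.4, 30.5 and 0.752%. In these classes the message was concentrated: the 10% of macrophage-like cells with most Ptgs2 held 63.8% of the class's Ptgs2 UMIs, against 49.6% in monocyte-like and 54.1% in neutrophil-like cells. Single cells reached 199 Ptgs2 UMIs in the dendritic cell-like, 184 in the monocyte-like and 127 in the macrophage-like class.

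Ptgs1, the constitutive cyclooxygenase, had 171 UMIs in all. In macrophage-like cells its level was 3.46, 17.1, 2.27 and 27.2 CPM, and in neutrophil-like cells 0, 8.00, 15 and 17.7 CPM. In macrophage-like cells the libraries titled replicate 1 were low and those titled replicate 2 high, which is a split between matrix letters c and t and not between the titled groups. The other classes named so far lay between 0 and 7.72 CPM, and no Ptgs1 UMI was counted in 134 NK cell-like cells, which at 3 counts allows a share of cells with a UMI of up to 2.24% and sets no limit on cells that express the gene. Ptges (chr2:30889471-30929863, minus strand), the inducible synthase of prostaglandin E, had 310 UMIs, and since it overlaps Gm13400 on the same strand its counts are uncertain. Macrophage-like cells held 3.46, 19.3, 19.7 and 24.2 CPM of it and monocyte-like cells 55.0, 6.35, 3.96 and 4.11 CPM, so the classes overlapped, with 16 of the 29 monocyte-like UMIs in Control 1.

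Hpgds (chr6:65117293-65144908, minus strand), the haematopoietic synthase of prostaglandin D, was counted in 2 unlike classes. Macrophage-like cells held 52.6% of its 1026 UMIs and T cell-like cells 28.5%. The level in macrophage-like cells was 66.5, 92.1, 60.6 and 94.6 CPM (78.4 ± 17.4, n = 4), and in T cell-like cells 67.6, 21.0, 34.6 and 23.5 CPM (36.7 ± 21.5). Those ranges overlapped through Control 1. Monocyte-like cells held 10.3, 18.0, 13.9 and 9.86 CPM, all under every macrophage-like value. Basophil-like cells had no Hpgds UMI in 95 cells, which at 3 counts allows a share of cells with a UMI of up to 3.16%. Mast cell-like cells, of which there were 6, 15, 6 and 10, held 422, 237, 99.5 and 80.5 CPM on 4, 5, 1 and 1 UMIs, above the macrophage-like value in every library but hucMSC-Exo 2.

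Alox5ap (chr5:149264767-149288153, plus strand), the 5-lipoxygenase activating protein, was spread over the myeloid classes. Its level was 1371, 1138 and 1467 CPM in the basophil-like cells of the last 3 libraries (1326 ± 169, n = 3), 1300, 851, 750 and 812 CPM in neutrophil-like cells (928 ± 251) and 633, 968, 921 and 1037 CPM in monocyte-like cells (890 ± 178). Macrophage-like cells held 443, 377, 384 and 400 CPM (401 ± 29.7) and dendritic cell-like cells 458, 530, 489 and 559 CPM (509 ± 44.5). Plasmacytoid dendritic cell-like cells, with 14, 10 and 17 cells in the last 3 libraries, held 659, 513 and 683 CPM. In the order of the means each class overlapped the next, except dendritic cell-like and macrophage-like cells, whose libraries separated. Alox5ap was seen in 95.7% of monocyte-like cells (exact 95% interval 93.3 to 97.4, 61.3% thinned) and in 1.19% of T cell-like cells (0.757 to 1.78, 0.313% thinned), a share not above the 1.49% (0.181 to 5.29, 0.752% thinned) of NK cell-like cells.

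Alox5 (chr6:116410077-116461178, minus strand), the 5-lipoxygenase itself, had 117 UMIs against the 10398 of its activating protein, counts that are not corrected for how well the 3' end of each transcript is captured. Neutrophil-like cells gave 36.8% of the Alox5 UMIs and basophil-like cells 19.7%. In neutrophil-like cells the level was 48.1, 11.2, 22.5 and 29.6 CPM, while in macrophage-like cells it was 6.05, 2.86, 0.757 and 2.27 CPM, so the classes did not overlap. Of the 23 basophil-like Alox5 UMIs, 22 came from Control 2, at 105 CPM, and hucMSC-Exo 1 had 0. Ltc4s (chr11:50236461-50238616, minus strand), the synthase of leukotriene C, had 153 UMIs and was counted in macrophage-like cells at 10.4, 10.0, 12.9 and 11.4 CPM and in dendritic cell-like cells at 0, 16.7, 12.3 and 20 CPM. One Ltc4s UMI was counted in all T cell-like cells together, and none in ILC2-like or NK cell-like cells.

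Ptafr (chr4:132564067-132582683, plus strand), the PAF receptor, was graded across the myeloid classes. Neutrophil-like cells held 578, 726, 637 and 746 CPM (672 ± 78.5, n = 4). Monocyte-like cells held 272, 401, 347 and 348 CPM (342 ± 53.2), and macrophage-like cells 175, 241, 201 and 229 CPM (211 ± 29.2). No library of one of these classes reached into the next. Dendritic cell-like cells (105 to 191 CPM) overlapped the macrophage-like range, as did basophil-like cells (81.3 to 312 CPM). T cell-like cells held 25.7, 13.2, 17.0 and 9.98 CPM, and a UMI was seen in 6.07% of them (exact 95% interval 5.04 to 7.22, 1.56% thinned). NK cell-like cells had no Ptafr UMI in 134 cells, which at 3 counts allows a share of cells with a UMI of up to 2.24%.

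**Figure D1:**
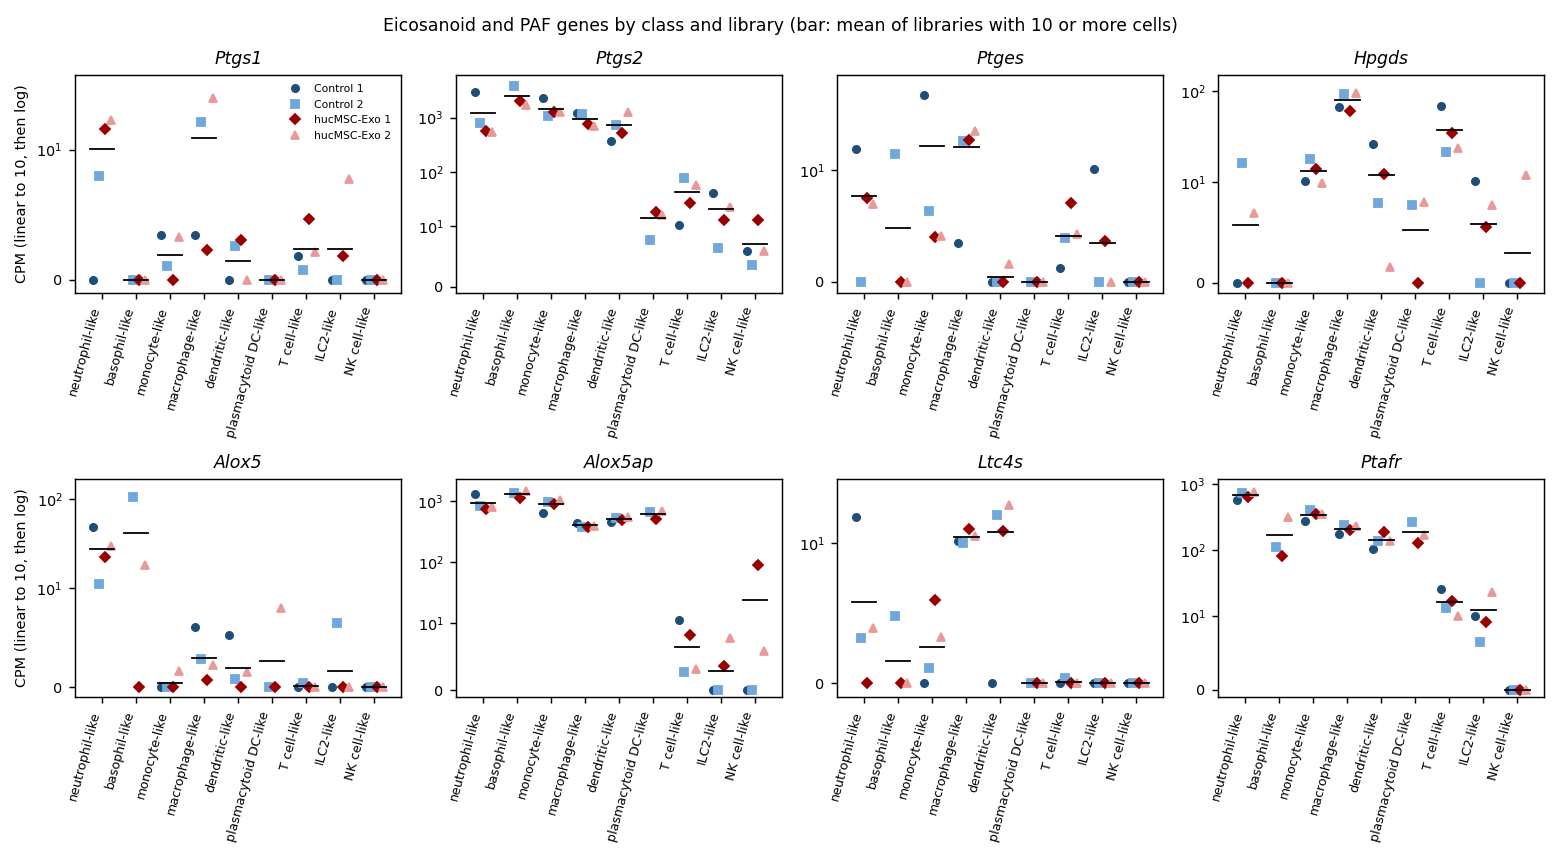
CPM of each of the 8 genes (vertical axis, linear to 10 CPM and logarithmic above) in 9 classes (horizontal axis), with 1 point per library and a bar at the mean of the libraries with at least 10 cells in the class. Ptgs2 and Alox5ap stand highest in the myeloid classes, Ptafr falls from neutrophil-like to monocyte-like to macrophage-like cells without overlap, and Hpgds is highest in macrophage-like and T cell-like cells.

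Differences between classes were tested with edgeR's quasi-likelihood test on the counts of 11 classes summed by library (41 sums), with the library as a block and Benjamini-Hochberg adjustment over 6232 genes. Ptgs2, Alox5ap, Hpgds and Ptafr passed the filter on low counts, and Ptgs1, Ptges, Alox5 and Ltc4s did not, so these last 4 have no test in this fit. Cells of one library share a mouse, and the block takes out what a library has in common over its classes. The p-values of this fit measure the spread left among the 41 sums after class and library. They do not measure the whole spread between the 4 mice.

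Against macrophage-like cells, neutrophil-like cells had more Ptafr (log2 fold change 2.00 ± 0.26, SE, edgeR adjusted p = 2.29e-08) and more Alox5ap (1.45 ± 0.31, adjusted p = 0.000109), and less Hpgds (−2.54 ± 0.46, adjusted p = 1.11e-05). Ptgs2 differed by 0.32 ± 0.43 (edgeR adjusted p = 0.542), with overlapping libraries. That is 3 of 4 genes tested, in a comparison in which 59.1% of all genes were called, 27% higher and 32.1% lower, so the count by itself is near the background.

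Monocyte-like against macrophage-like cells was the more selective comparison, with 18% of genes called (8.95% higher, 9.02% lower), and again 3 of 4 members passed. Hpgds was lower in monocyte-like cells by −2.46 ± 0.36 (edgeR adjusted p = 2.94e-06). Alox5ap was higher by 1.22 ± 0.30 (edgeR adjusted p = 0.00351), and Ptafr by 0.76 ± 0.25 (adjusted p = 0.0303). The Alox5ap call was lost without hucMSC-Exo 2 (edgeR adjusted p = 0.118), and the Ptafr call was lost without Control 2, hucMSC-Exo 1 or hucMSC-Exo 2 (edgeR adjusted p = 0.161, 0.0735 and 0.112) and with DESeq2 (adjusted p = 0.139). It was also lost without the filter on low counts, with relative log expression scaling and without the library block (edgeR adjusted p = 0.0529, 0.0599 and 0.0742). Ptgs2 differed by 0.70 ± 0.42 (edgeR adjusted p = 0.264).

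Dendritic cell-like cells had less Hpgds than macrophage-like cells (−3.02 ± 0.43, edgeR adjusted p = 3.34e-07), while Alox5ap (0.46 ± 0.30), Ptafr (−0.45 ± 0.27) and Ptgs2 (−0.18 ± 0.42) did not pass. With 1 more marker in the gate Ptafr was called lower (−0.63, edgeR adjusted p = 0.0412). In that comparison 38.6% of all genes were called, 18.5% higher and 20.1% lower.

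Basophil-like cells, a class known as an early source of lipid mediators and interleukin-4, differed from neutrophil-like cells in 28.9% of genes (11.8% higher, 17.1% lower). Ptafr was lower in them (−2.18 ± 0.37, edgeR adjusted p = 1.05e-05). Ptgs2 was higher (1.58 ± 0.49, edgeR adjusted p = 0.0108). Without Control 2, which gave 57 of the 94 basophil-like cells fitted, the Ptgs2 difference was 0.97 (edgeR adjusted p = 0.244), and without hucMSC-Exo 2 it was 1.64 (adjusted p = 0.0586). Without the limit on detected genes it was 1.31 (edgeR adjusted p = 0.0730). Alox5ap differed by 0.64 ± 0.35 (edgeR adjusted p = 0.173) and passed without hucMSC-Exo 1 (0.95, adjusted p = 0.0146). Hpgds, with no UMI in basophil-like cells and 17 in neutrophil-like cells, is given no fold.

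Among lymphoid classes, ILC2-like cells had less Hpgds than T cell-like cells (−2.47 ± 0.69, edgeR adjusted p = 0.0144), at 10.2, 0, 5.51 and 7.72 CPM against 67.6, 21.0, 34.6 and 23.5 CPM. The libraries did not overlap. The call was lost without hucMSC-Exo 1, the library with 118 of the 190 ILC2-like cells (−2.65, edgeR adjusted p = 0.158), and with 1 more marker in the gate (−2.22, adjusted p = 0.0854). Here 11% of all genes were called, 4.16% higher and 6.84% lower, and Ptgs2, Alox5ap and Ptafr did not pass.

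Osteoclast-like macrophages, gated by Ctsk, Acp5 and like genes, were too few under the limit of 3000 detected genes (0, 20, 12 and 1 cells) to be fitted. Without that limit there were 10, 118, 58 and 7 cells, and hucMSC-Exo 2 was left out of the fit of this class for its 7 cells. In these larger cells Ptgs2 was at 31.1, 126, 5.25 and 43.0 CPM, against 1127, 1060, 752 and 649 CPM in the macrophage-like cells of the same setting. Alox5ap was at 2.82, 26.6, 9.75 and 21.5 CPM, and Ptafr at 16.9, 39.1, 26.2 and 57.4 CPM. All these values lay under the macrophage-like ones of that setting, which were 346 to 434 CPM for Alox5ap and 155 to 228 CPM for Ptafr. With the limit kept, the 20 cells of Control 2 held 1685 CPM of Ptgs2, above the 1156 CPM of its macrophage-like cells, and the 12 cells of hucMSC-Exo 1 held 111 CPM, so for Ptgs2 the direction rests on the limit. In that setting 9 of 33 osteoclast-like cells had a Ptgs2 UMI, and the 10% of cells with most held 90.1% of them. Alox5ap was at 177 and 14.9 CPM and Ptafr at 118 and 52.0 CPM in those libraries, still under the macrophage-like values. The fit without the limit called Alox5ap (−4.79 ± 0.48, edgeR adjusted p = 7.43e-11), Ptgs2 (−4.49 ± 0.65, adjusted p = 2.75e-07), Hpgds (−4.41 ± 0.41, adjusted p = 2.78e-11), Ptafr (−2.95 ± 0.35, adjusted p = 4.85e-09) and Ptgs1 (−2.87 ± 0.71, adjusted p = 0.00103) lower, and not Ptges (−1.32 ± 0.56, adjusted p = 0.0556). Of all 7679 genes, 23.9% were called lower and 18.2% higher (42.1% in either direction).

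Clusters were made from 2000 variable genes with the 8 members left out, and are described here with no test. Values are those of whole clusters, which also hold cells that the gates placed elsewhere. Ptgs2, Ptges and Hpgds differed in level between the clusters named macrophage. Cluster 2 (Mmp19, Hmox1 and Inhba among its leading genes, 418 cells) held the most Ptgs2, at 3839, 1956, 1167 and 1320 CPM. Cluster 1 (Ccl8, Igf1, C1qb; 315 cells) held 663, 408, 393 and 208 CPM, under cluster 2 in every library. Cluster 5 (Pf4, Spp1, Arg1, 453 cells) varied most, from 258 CPM in hucMSC-Exo 1 to 2131 CPM in Control 1. Ptges, the next enzyme towards prostaglandin E, followed another order: cluster 5 held 28.9, 42.2, 15.8 and 60.1 CPM, above clusters 1 (4.32 to 15 CPM) and 2 (4.09 to 16.9 CPM) in each library. Hpgds was at 112, 87.6, 57.2 and 65.4 CPM in cluster 5 and at 32.7, 50.7, 36.7 and 39.1 CPM in cluster 2. Cluster 5 was thus above cluster 2 in each library, while cluster 1 was not ranked for Hpgds. In hucMSC-Exo 2 both clusters lay under the 94.6 CPM of all macrophage-like cells, so cluster 5 is not shown to hold the most Hpgds. Cluster 15 (C1qb, Aif1, Psmb9, 159 cells), also named macrophage but with a median of 979 UMIs a cell, held 22.6 to 126 CPM of Ptgs2, 0 to 49.0 CPM of Ptges and 22.6 to 106 CPM of Hpgds, each on 10 UMIs or fewer a library.

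**Figure D2:**
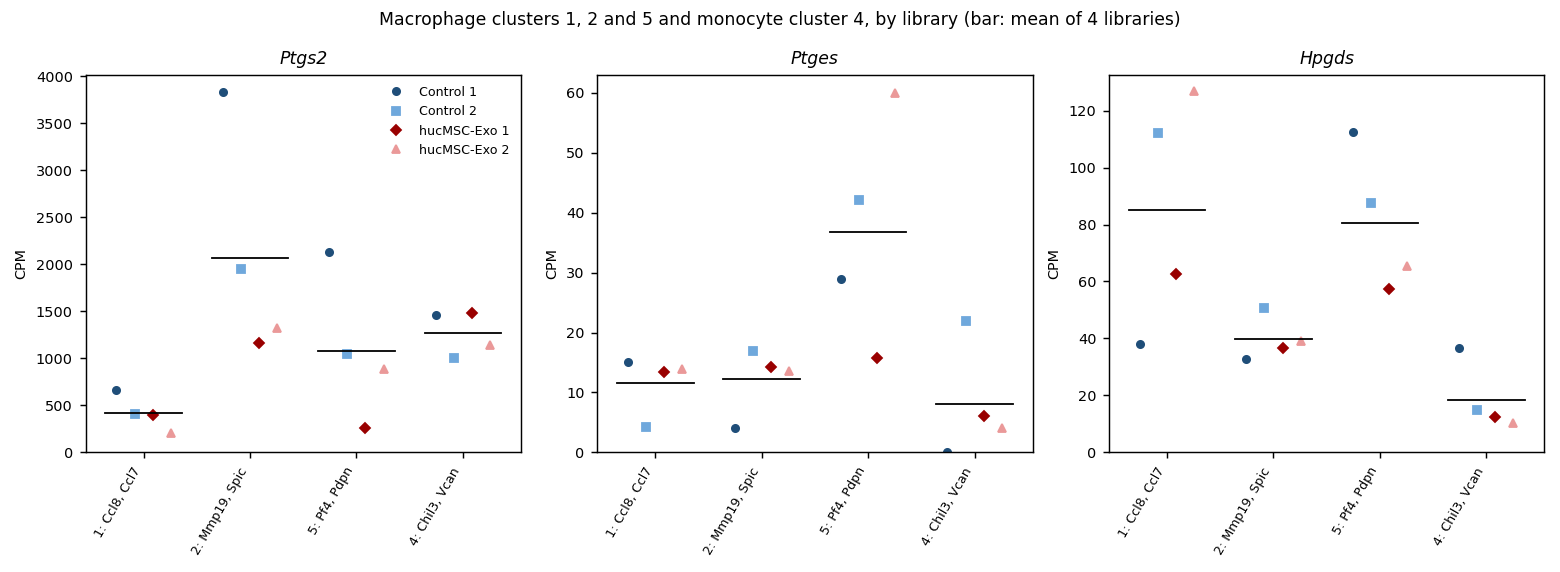
CPM (vertical axis, linear from 0) of Ptgs2, Ptges and Hpgds in macrophage clusters 1, 2 and 5 and monocyte cluster 4 (horizontal axis, each with 2 of its leading genes), with 1 point per library and a bar at the mean of 4 libraries. Cluster 2 is above cluster 1 for Ptgs2 in every library, and cluster 5 is above clusters 1 and 2 for Ptges in every library.

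The clusters named T cell, again taken whole and without the small dividing clusters 18 and 20, held distinct patterns. Hpgds was at 122, 71.8, 102 and 97.1 CPM in cluster 0 (Col27a1, Prf1, Cd7, 220 cells), at 90.5, 79.7, 80.6 and 88.6 CPM in cluster 6 (Dnajb1, Col27a1, Prf1, 436 cells) and at 93.3, 42.8, 71.6 and 49.0 CPM in cluster 9 (Mest, Fermt2, 382 cells). In cluster 11 (Il17a, Il17f, Blk; 573 cells), cluster 14 (Cd40lg, Cd4, 364 cells) and cluster 13 (Foxp3, Ctla4, 273 cells), a regulatory T cell pattern, it was between 0 and 13.9 CPM. These sets, which leave out cluster 7 (219 cells, also named T cell), did not overlap in any library. Ptafr showed the same split, with 19.6 to 57.4 CPM in clusters 0, 6 and 9 and 0 to 9.93 CPM in clusters 11, 13 and 14. Ptgs2 showed another: cluster 11, led by interleukin-17 genes, held 53.8, 270, 56.5 and 165 CPM, against 1.99 to 34.0 CPM in clusters 0, 6, 9, 13 and 14 and cluster 12 (Gzma, Gzmc), an NK cell-like cluster. Cluster 7 (Ccr6, Il17a) reached 94.9 CPM in hucMSC-Exo 1 and lay at 3.93 to 18.3 CPM in the other libraries. Few cells carried the message: 6.01% of T cell-like cells had a Ptgs2 UMI (2.66% thinned), and a single cell held 54 of their 424 UMIs. Its spread over the cells of cluster 11, and any share of free RNA in it, was not tested.

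A split by T cell receptor genes, made on T cell-like cells without the clusters, also gave sets that differed in Hpgds. Cells with Trdv4, a gamma-delta receptor variable gene, and without Trac, the alpha chain constant gene (925 cells), held 84.0, 32.4, 46.1 and 34.4 CPM of Hpgds. Cells with Trac and without Trdv4 (526 cells) held 11.8, 7.95, 4.21 and 5.15 CPM, under the former in every library. Ptafr was at 28.8, 25.5, 27.4 and 14.5 CPM in the former and 14.7, 4.41, 0 and 0 CPM in the latter. How the cells with Trdv4 were spread over the clusters was not tested. They may include cells of the cluster led by Il17a and Il17f, which was low in Hpgds. Whether Hpgds divides all gamma-delta from all alpha-beta T cells was therefore not tested. Control 1, the library with most Hpgds among all T cell-like cells, also had the most cells of cluster 0 (111 of 220), and the part of that share in its Hpgds level was not tested.

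**Figure D3:**
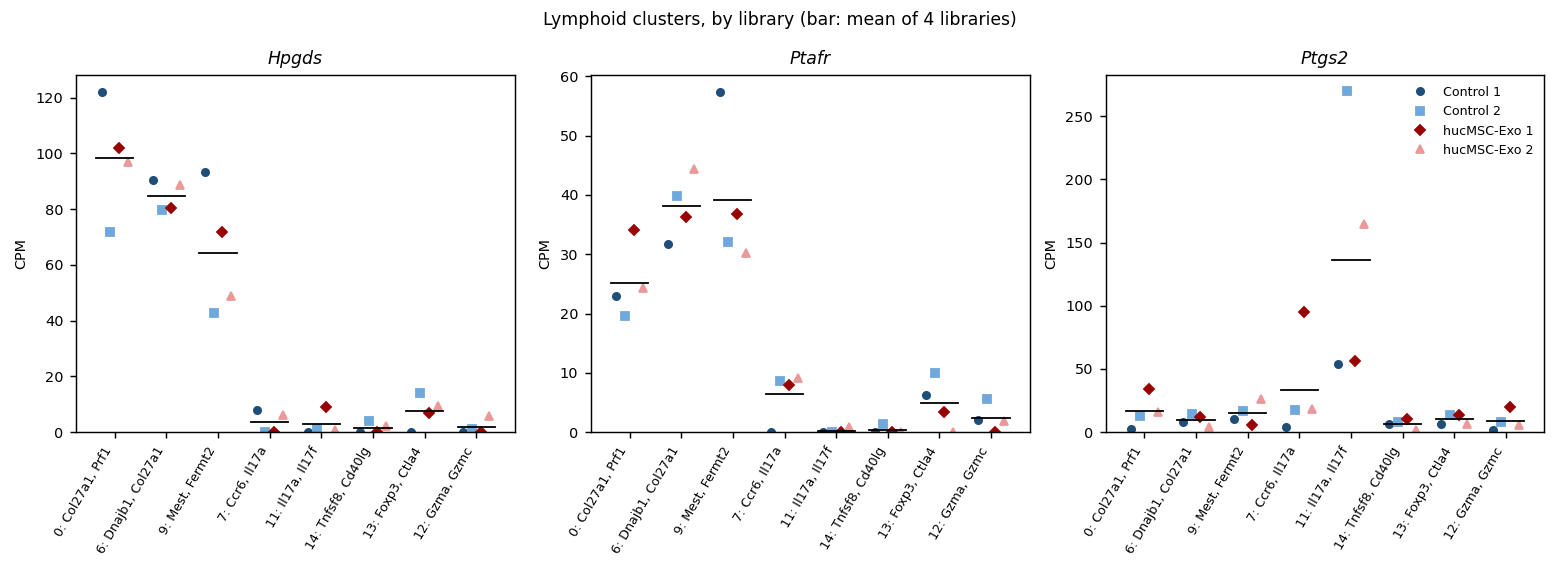
CPM (vertical axis, linear from 0) of Hpgds, Ptafr and Ptgs2 in 8 lymphoid clusters (horizontal axis, each with 2 leading genes), with 1 point per library and a bar at the mean of 4 libraries. Hpgds and Ptafr are highest in clusters 0, 6 and 9, and Ptgs2 is highest in cluster 11 in every library but hucMSC-Exo 1, where cluster 7 is.

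Of 40 other genes of the pathway, 20 passed the filter of the class fit. In neutrophil-like against macrophage-like cells 5 were higher and 4 lower, beside 27% and 32.1% of all genes (median log2 fold change −0.31, against −0.16 over all genes), which is no larger a share than the background. The leukotriene B receptor Ltb4r1 was at 64.2 to 157 CPM in neutrophil-like and 3.78 to 19.0 CPM in macrophage-like cells (4.02 ± 0.42, edgeR adjusted p = 1.92e-10). Fpr2, a formyl peptide and lipoxin receptor, was at 128 to 404 CPM against 1.51 to 23.5 CPM (5.16 ± 0.39, edgeR adjusted p = 1.39e-12). The others higher were Cyp4f18, a leukotriene B hydroxylase (2.59 ± 0.29), Lpcat2, an enzyme of PAF synthesis (1.03 ± 0.25), and Pafah1b1, a subunit of PAF acetylhydrolase (1.09 ± 0.18). Lower were Pla2g15, a lysosomal phospholipase (−4.97 ± 0.62), the cysteinyl leukotriene receptor Cysltr1 (−2.79 ± 0.60), Ptgr1, an enzyme of prostaglandin and leukotriene B breakdown (−2.46 ± 0.54), and Ptges3 (−0.87 ± 0.22). Ltb4r1 and Cysltr1 thus went in opposite directions. The other cysteinyl leukotriene receptor, Cysltr2, did not pass (−0.15 ± 1.71), on 1 UMI in neutrophil-like and 5 in macrophage-like cells.

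In monocyte-like against macrophage-like cells 4 of the 20 were higher and 1 lower, beside 8.95% and 9.02% of all genes (median 0.23, against 0.02 over all genes). These were Ltb4r1 (2.77 ± 0.41), the prostacyclin receptor Ptgir (1.89 ± 0.51), Fpr2 (1.38 ± 0.45) and Dpep2, a dipeptidase that cleaves leukotriene D (1.18 ± 0.42), and, lower, Pla2g15 (−1.71 ± 0.33). In dendritic cell-like cells 4 were higher and 9 lower, beside 18.5% and 20.1% of all genes (median −0.08, against −0.01). Lta4h, which makes leukotriene B (1.53 ± 0.30), Ltb4r1 (1.67 ± 0.48), Pafah1b3 (1.40 ± 0.28) and the prostaglandin E receptor Ptger4 (1.15 ± 0.34) were the ones higher. Pla2g7, the secreted PAF acetylhydrolase, was lower (−3.26 ± 0.29, edgeR adjusted p = 7.24e-12), at 15.8 to 57.0 CPM against 378 to 431 CPM in macrophage-like cells, and the cytosolic phospholipase Pla2g4a was lower by −1.85 ± 0.42. Also lower were Pla2g15 (−3.86 ± 0.46), Cysltr1 (−2.54 ± 0.50), Ptgr1 (−2.34 ± 0.46), Cyp4f18 (−1.99 ± 0.37), Lpcat2 (−1.78 ± 0.29) and Abcc1, of leukotriene export (−0.90 ± 0.30). Fpr2 was called lower too, with no UMI in dendritic cell-like cells.

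In basophil-like against neutrophil-like cells 2 were higher and 4 lower, beside 11.8% and 17.1% of all genes (median −0.23, against −0.35), a share near the background. Alox15, the 12/15-lipoxygenase, was at 40.6 to 76.7 CPM in basophil-like cells and had no UMI in neutrophil-like cells. Ptgir was higher by 4.08 ± 0.98, on 10 UMIs that all came from Control 2. Pla2g7 (−6.53 ± 0.76), Fpr2 (−6.38 ± 0.96), Ltb4r1 (−3.43 ± 0.83) and Lpcat2 (−2.88 ± 0.55) were lower. In basophil-like cells Pla2g7 and Fpr2 had 1 UMI each, Ltb4r1 4 and Lpcat2 6, so the sizes of these folds are uncertain. ILC2-like cells had 6 genes higher than T cell-like cells and none lower, beside 4.16% and 6.84% of all genes (median 0.07, against −0.07). They were the receptors Ptgir (3.45 ± 0.51), Cysltr1 (2.72 ± 0.38), Cysltr2 (1.76 ± 0.48) and Ptger4 (1.29 ± 0.38), with Pla2g4a (2.86 ± 0.92) and Lpcat2 (2.62 ± 0.58). Pla2g4a rested on only 5 UMIs in ILC2-like and 4 in T cell-like cells, and Lpcat2 on 16 and 27. Cysltr1 was at 46.3 to 112 CPM in ILC2-like and 2.39 to 21.7 CPM in T cell-like cells, with no overlap.

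**Figure D4:**
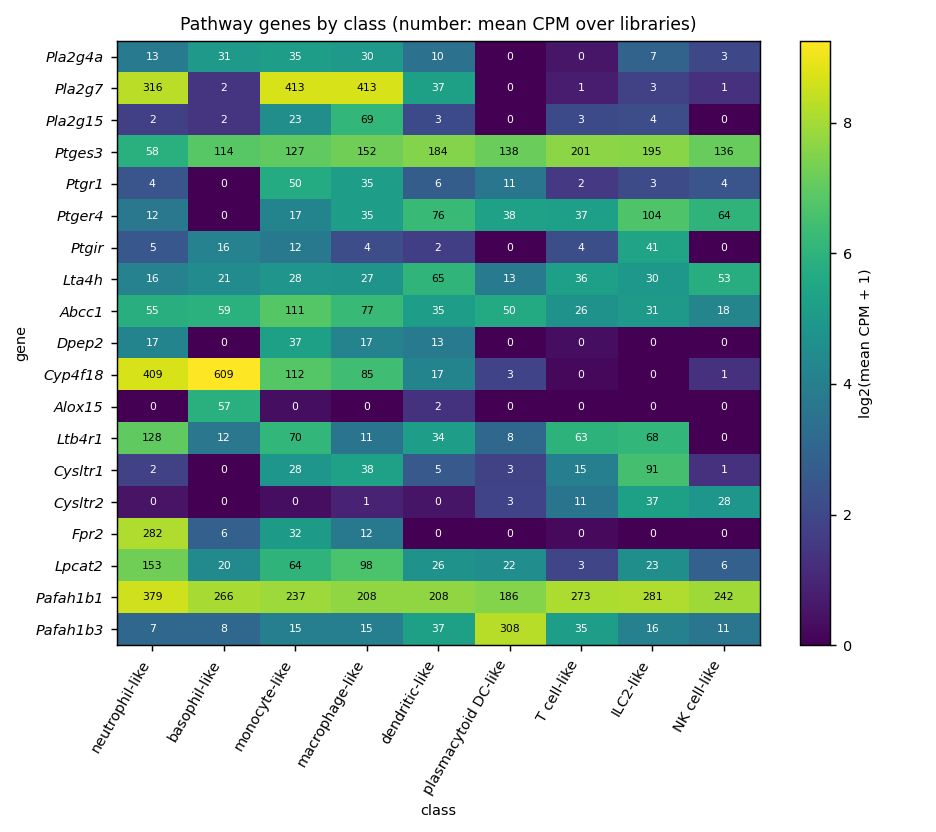
Mean CPM over libraries (number in each cell; colour, log2 of mean CPM + 1) of the 19 other pathway genes named by rule (vertical axis) in 9 classes (horizontal axis). Ltb4r1 and Fpr2 are highest in neutrophil-like cells, at 128 and 282 CPM, Cysltr1 in ILC2-like cells, at 90.9 CPM, and Pla2g7 is near 413 CPM in monocyte-like and macrophage-like cells.

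Treated and control libraries were set against each other within neutrophil-like, joined monocyte- and macrophage-like, and T cell-like cells, each with 2 libraries a group as titled, to see whether any of the 8 genes changed with the treatment. A grouping by the matrix letters c and t was not tested, and under it each titled group would join a control and a treated mouse. The values of each library are given so that they can be read either way. No member was called in any of them, and neither was any gene: edgeR called 0 of 3374, 0 of 8640 and 0 of 9344 genes (0% in each), with 37, 114 and 234 at an unadjusted p under 0.05, and DESeq2 called 0 in each, with 15, 62 and 70. Leaving out Control 2 gave 67, 210 and 157 calls, with 1 control library left whose spread was taken to be that of the others.

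Ptgs2 in neutrophil-like cells had the largest fitted difference of the members, 2952 and 790 CPM in Control against 577 and 551 CPM in hucMSC-Exo (−1.43 ± 0.51, edgeR unadjusted p = 0.0164, adjusted p = 1.00). Both hucMSC-Exo libraries lay under both Control libraries, but Control 1 held 29 neutrophil-like cells and set most of the difference. Without Control 1 it was −0.47 (edgeR adjusted p = 1.00), and without Control 2 it was −1.98 (adjusted p = 2.81e-05). The share of neutrophil-like cells with a Ptgs2 UMI was 79.3, 60.8, 39.7 and 46.6%, and 67.9, 42.5, 29.9 and 29.7% after thinning, so it kept the same order of groups.

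In monocyte- and macrophage-like cells Ptgs2 was at 1432, 1160, 840 and 965 CPM (−0.46 ± 0.27, edgeR unadjusted p = 0.121), again with both hucMSC-Exo libraries below. Hpgds was at 55.2, 70.6, 45.9 and 53.7 CPM (−0.28 ± 0.26). Alox5ap was at 481, 508, 497 and 704 CPM (0.33 ± 0.27). Ptafr, at 195, 273, 228 and 287 CPM (0.20 ± 0.29), overlapped between groups, as did Ptges (0.00 ± 0.34), Ptgs1 (0.07 ± 0.82) and Ltc4s (0.29 ± 0.44). Both hucMSC-Exo libraries were below both Control libraries for 2 of 4 members tested in neutrophil-like cells (Ptgs2 and Alox5ap; 17.9% of all genes) and 2 of 7 in monocyte- and macrophage-like cells (Ptgs2 and Hpgds; 15.9% of all genes). They were above for none of them (9.4 and 8.67% of all genes).

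In T cell-like cells none of the 4 members tested separated the groups in either direction, against 20.5% of all genes below and 9.54% above. Hpgds (67.6 and 21.0 against 34.6 and 23.5 CPM, −0.47 ± 0.48) and Ptafr (25.7 and 13.2 against 17.0 and 9.98 CPM, −0.43 ± 0.40) had their highest value in Control 1. Ptgs2 (−0.02 ± 0.78) was at 10.8 CPM in Control 1 and 76.7 CPM in Control 2, a wider gap than that between the groups. Of the 40 other pathway genes, 8, 26 and 17 were tested in the 3 comparisons and none was called in either direction.

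**Figure D5:**
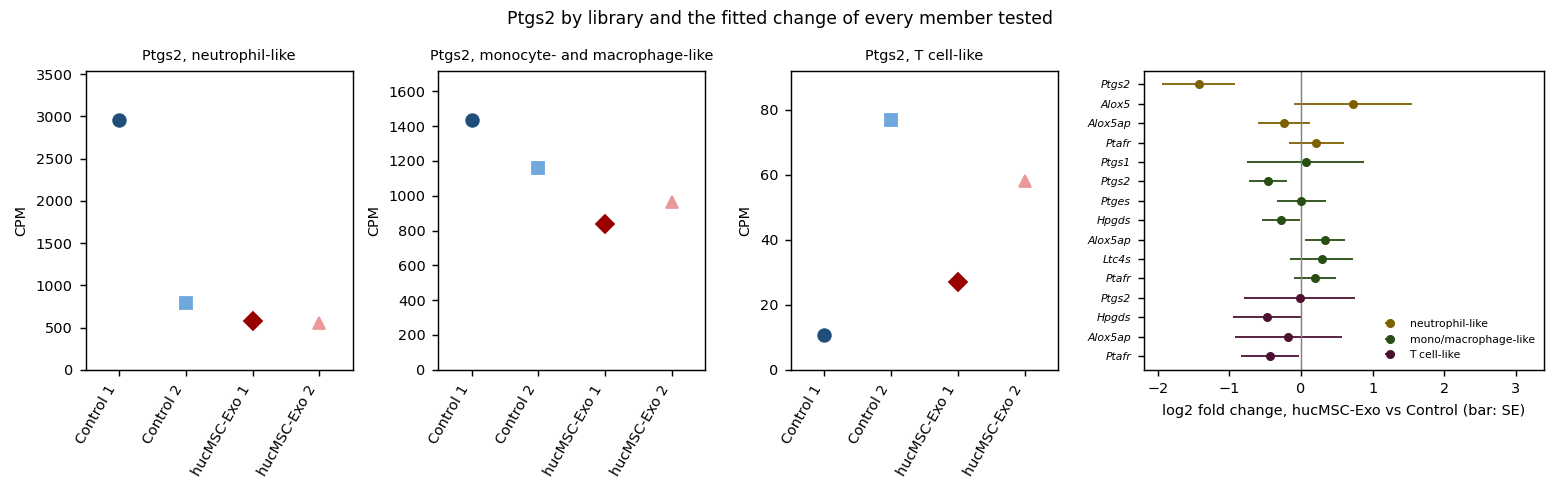
Left, Ptgs2 in CPM (vertical axis, linear from 0) by library in neutrophil-like, monocyte- and macrophage-like, and T cell-like cells. Right, the fitted log2 fold change of hucMSC-Exo against Control for each member tested (bar: SE), where Ptgs2 in neutrophil-like cells, at −1.43, lies farthest from 0 and no member passes the adjusted test.

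The genes whose level followed each well-counted member most closely over the 41 sums, by Pearson's r of log2(CPM + 10), are given as a description, since sums of one library or class are not independent. Nlrp3 (r = 0.94), Ier3 (0.93) and Emilin2 (0.92) were nearest to Ptgs2. Cd300a and Trib1 (both 0.93) and Csf2rb (0.91) were nearest to Alox5ap. Trib1 (0.93), Lamp2 (0.92) and Cd300a (0.91) were nearest to Ptafr, so Trib1 and Cd300a stood in both lists. Hpgds had no close partner, with Pmp22 (0.78), Slc11a2 (0.76) and Vwa5a (0.73) nearest. For the sparse members the nearest were weaker, Pfkfb3 (0.63), Plk2 and Cd300ld (both 0.62) for Ptgs1, Dstn (0.62), Cacul1 (0.60) and Sdc1 (0.57) for Ptges, Id1 and H2-Q10 (both 0.74) and Il15 (0.72) for Alox5, and Fabp5 (0.73), Vav3 and Aph1c (both 0.68) for Ltc4s.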

How the data were processed

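The authors aligned Chromium 3' reads to mm10 with Cell Ranger 6.1.2 and deposited raw UMI counts per gene and cell for 4 libraries. Their methods place doublet removal after this step. The 7178 deposited barcodes are fewer than the cells the authors describe before separating Ptprc+ cells by computation. A cell was kept if it had 200 to 3000 genes and if mitochondrial UMIs made up no more than 10% (4779405 to 11243740 UMIs kept per library). Kept cells were gated by the mean z-score of 15 marker lists (at least 3 markers, score and lead of 0.25), a rule settled after a first gate had been seen; 530 cells fell between classes, 601 in none and 355 near the limit. Clusters (Leiden, resolution 1) were named from the same lists, with 83.7% agreement. The members and lists were chosen with earlier results of these data known. Pathway genes are named where a test called them or where they had most counts of their role, and for each member the 3 genes of most like pattern. Scrublet (in Scanpy 1.11.5) marked 0.273 to 0.826% of cells as doublets, which were kept in the fits and left out in an alternative. Barcodes shared between libraries numbered 0 to 2 per pair. Counts summed by class and library (at least 10 cells) were tested with edgeR 4.0.16 (R 4.3.3). Alternatives were DESeq2 1.42.0, other scaling, filters, gates, clusters, blocks, cell limits, thinning and leaving out each library. Same-numbered libraries had residual correlations of −0.06 (neutrophil-like), −0.29 (monocyte- and macrophage-like) and 0.32 (T cell-like).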

Additional observations from a re-analysis of the deposited data

How the results depend on the processing

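Of the members' class differences, 172 of 180 values kept direction and side of the threshold under the settings other than leaving out a library; 6 lost and 1 gained a call, and Ptgs2 in neutrophil-like against macrophage-like cells turned to −0.016 with clusters in place of gates. Over the 4 fits without one library, 70 kept both, 7 lost a call, 1 gained one and 2 turned. Relative log expression scaling moved the median of all genes from −0.16 to −0.29 in neutrophil-like against macrophage-like cells, from −0.01 to −0.16 (964 higher and 1543 lower, against 1151 and 1252) in dendritic cell-like, from 0.02 to −0.08 (433 and 742, against 558 and 562) in monocyte-like, and from −0.35 to −0.21 in basophil-like cells, where DESeq2 called 889 higher and 816 lower, against 733 and 1068; DESeq2 called 359 and 371 in ILC2-like against T cell-like cells, against 259 and 426. The causes of these changes were not tested.

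Leaving out a library gave 990 to 2030 called genes in basophil-like against neutrophil-like cells (1801 with all; fewest without Control 2), 385 to 524 in ILC2-like against T cell-like (685; 451 without Control 1, 430 without Control 2, fewest without hucMSC-Exo 1) and 450 to 1015 in monocyte-like against macrophage-like (1120; 545 without Control 2, fewest without hucMSC-Exo 2). Between the groups it gave 0 to 157 in T cell-like, 0 to 210 in monocyte- and macrophage-like and 0 to 67 in neutrophil-like cells, the most each time without Control 2, with 8 (T cell-like) without Control 1 and 2 and 3 (the others) without hucMSC-Exo 2. Without the filter on low counts 31, 32 and 6 genes were called. The osteoclast-like comparison, with 3231 calls, could be fitted only without the limit on detected genes.

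With the replicate number as a block 0 genes were called in each group comparison, with 26 (neutrophil-like), 66 and 564 (T cell-like) at an unadjusted p under 0.05, so the block changed no call, and 2 pairs cannot show that the numbers pair the mice. With the numbers crossed, an alternative added after seeing the data, 27 genes were called in monocyte- and macrophage-like cells. Uncalled members that turned between the groups were, in T cell-like cells, Ptgs2 (0.012 with 1 more marker, 0.11 with clusters, 0.16 without the gene limit, 0.26 with the block, −0.80 to 2.21 leaving out a library), Alox5ap (−0.90 to 0.96) and Hpgds (−1.05 to 0.44). In monocyte- and macrophage-like cells they were Ltc4s (−0.19 without the gene limit; −0.048 to 0.61), Ptafr (−0.0076 to 0.46), Ptges (−0.20 with clusters, −0.0046 without the filter; −0.070 to 0.12) and Ptgs1 (−0.15 with the crossed and −0.0033 with the plain block; −2.32 to 1.40). Ptafr in neutrophil-like cells ranged from −0.054 to 0.67, and Ptgs2 in dendritic cell-like against macrophage-like cells from −0.76 to 0.14. Leaving out the called doublets or the keratin and collagen gates (the latter added after seeing the data) moved no count of called genes by over 1.5 times.

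Thinning to 1000 UMIs a cell lowered the mean share of cells with a UMI to 1.03% (Ptgs1, macrophage-like), 46.1% (Ptgs2, basophil-like), 0.946% (Ptges, monocyte-like), 9.32% (Hpgds, macrophage-like), 73.4% (Alox5ap, basophil-like), 0.746% (Ltc4s, dendritic cell-like) and 45.6% (Ptafr, neutrophil-like). With 117 to 310 UMIs in all, Ptgs1, Ptges, Alox5 and Ltc4s passed no filter in the fit of the 11 classes and were not tested there.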
